A study of Mus musculus with 10 samples.

Results

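The TNF and TNF receptor superfamilies are 2 matched gene families. The ligands are mostly trimeric membrane proteins that can be cut free as soluble cytokines, and the receptors bind them through cysteine-rich repeats. Receptors with a death domain can start apoptosis, receptors that bind TRAF adaptor proteins switch on NF-kB and MAP kinases, and decoy receptors bind a ligand without passing on a full signal. In the uterus these proteins are known from leucocytes as well as from epithelial and stromal cells, and TNF is a central cytokine of endometrial inflammation.

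The families were taken by name as the protein-coding genes whose symbols begin with Tnfsf or Tnfrsf and a digit, together with *Tnf*, *Lta*, *Ltb*, *Ltbr*, *Cd40*, *Cd40lg*, *Fas*, *Fasl*, *Cd27* and *Cd70*. This gave 41 of the 29268 genes in the table, of which 17 were ligands and 24 were receptors. Of the receptors, 16 were placed with the TRAF-binding type, 5 with the death-domain type and 3 with the decoys. Receptors without another assignment went to the TRAF-binding type by default, and *Tnfrsf26*, a relative of the decoys, was counted there. Membership was set by name and no measured value entered the rule, but the families were chosen with earlier results of these data known.

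The RNA came from whole uterus of female mice at the age of 4 months, 5 HSD17B1TG and 5 wild-type (WT), with 1 library per mouse. HSD17B1TG mice are FVB/N mice that carry human *HSD17B1* cDNA, the enzyme that turns estrone into estradiol, in every tissue under a CMV-enhanced chicken beta actin promoter, and the line was kept heterozygous. These females do not cycle, whereas WT uteri were taken at random phases of the cycle, so that genotype and cycle phase cannot be told apart. The comparison asks how expression in the uterus differed between the genotypes before adenomyosis was seen, and the labels do not give litters or batches, so that the p-values measure the spread between these mice. The mice are called TG1 to TG5 and WT1 to WT5.

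The libraries held 14817228 to 23271988 reads counted on genes, and 3 reads in the smallest library correspond to 0.202 CPM. Mouse *Hsd17b1* was 0.992 ± 0.291 FPKM (SD, n = 5) in HSD17B1TG and 0.918 ± 0.375 FPKM in WT, but it does not check the labels, since the transgene is the human sequence. The uterine marker genes *Esr1*, *Pgr*, *Hoxa10*, *Hoxa11* and *Hand2* were above 0 in every mouse. Levels are given as FPKM, fragments scaled by gene length and library size. Differences are log2 fold changes, HSD17B1TG over WT, from edgeR's quasi-likelihood test on raw counts, with p adjusted over all genes tested. A gene is said to have risen or fallen only where the adjusted p was under 0.05, the fold change over 2 and the mean FPKM over 1 in either group.

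Among the 41 genes the receptors *Tnfrsf8* and *Tnfrsf1b* rose and the receptor *Tnfrsf9* fell in the HSD17B1TG uterus. No ligand passed the thresholds in edgeR, although 5 ligands were higher and 1 was lower by an unadjusted p under 0.05 and DESeq2 called *Tnf*, *Tnfsf10*, *Tnfsf13* and *Tnfsf14* up and *Fasl* down. Of the 41 genes, 34 had enough counts to be tested, and 2 of them rose, or 5.88%, beside 2.16% of all 16993 genes tested. The 1 gene that fell made up 2.94%, beside 2.08% of all genes. By an unadjusted p under 0.05, 11 genes (32.4%) were higher and 4 (11.8%) were lower, beside 14.7% and 11.4% of all genes. In 4 genes the FPKM of every HSD17B1TG mouse lay above every WT mouse (11.8%, beside 4.04% of all genes), and in 1 gene every HSD17B1TG mouse lay below (2.94%, beside 2.65%). By sign alone, 18 genes were higher (52.9%, beside 50.2% of all genes) and 16 lower, and the median log2 fold change was 0.08, against 0.00 over all genes tested. By the adjusted p alone, without the thresholds on fold and level, 3 genes were higher and 1 was lower, where 6.16% of all genes passed in either direction. DESeq2, a second count test, called 8 of the genes up and 3 down, beside 5.42% and 3.87% of all genes.

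**Figure D1:**
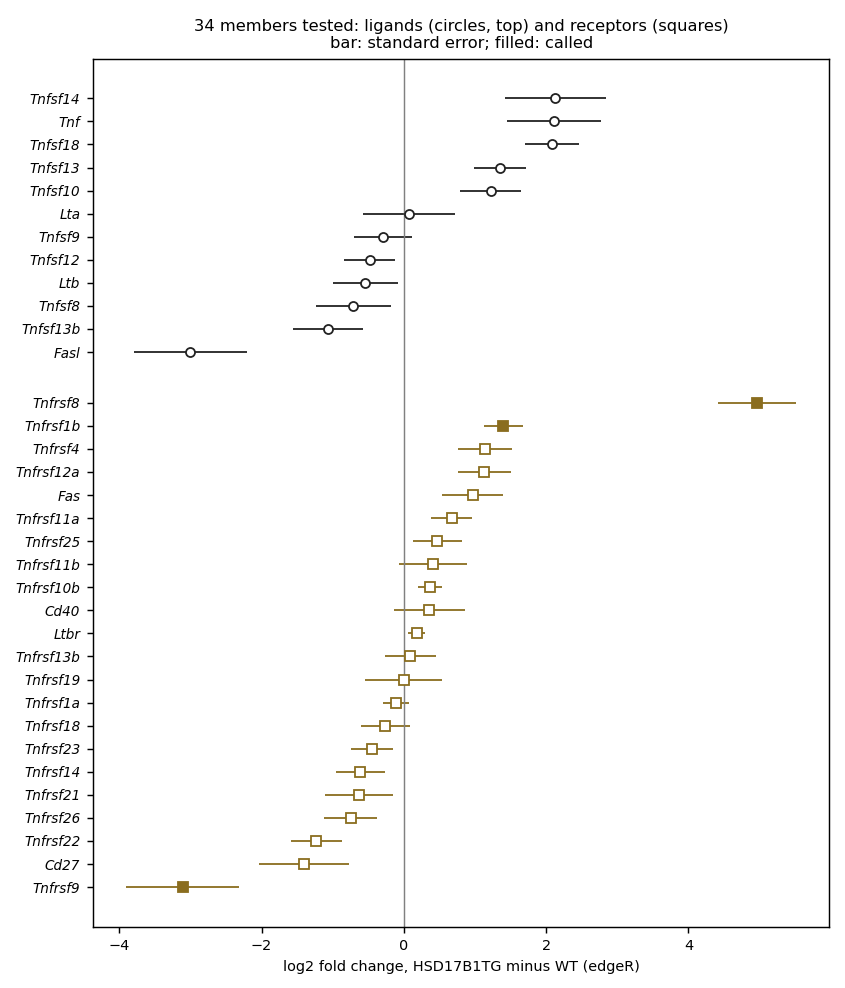
Log2 fold change of HSD17B1TG over WT for the 34 genes tested, with the standard error from edgeR as a bar. Circles are the 12 ligands and squares the 22 receptors, and filled symbols are the 3 genes that passed all thresholds, *Tnfrsf8* at 4.96, *Tnfrsf1b* at 1.40 and *Tnfrsf9* at -3.11.

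The plot of log2 fold changes shows that both ligands and receptors spread to either side of 0. The median was -0.11 over the 12 ligands tested, 0.14 over the 14 TRAF-binding receptors, 0.37 over the 5 death-domain receptors and -0.45 over the 3 decoys. The 3 genes that passed the thresholds in edgeR were TRAF-binding receptors, a type that made up 14 of the 34 genes tested, whereas those called by DESeq2 included 5 ligands and the decoy *Tnfrsf22*.

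*Tnfrsf8* (ENSMUSG00000028602) encodes CD30, a TRAF-binding receptor best known from activated lymphocytes and from Hodgkin lymphoma. The gene lies on the minus strand of chr4:145267137-145315164 (GRCm38). Its level was 1.33, 4.14, 1.57, 2.83 and 8.02 FPKM in TG1 to TG5, and 0.0941, 0.122, 0.125, 0.126 and 0.0988 FPKM in WT1 to WT5. The WT mice were all low, with 7 to 9 reads each, while the HSD17B1TG mice had 86 to 432 reads and lay above every WT mouse. The means were 3.58 ± 2.73 FPKM (SD, n = 5) and 0.113 ± 0.0155 FPKM, a ratio of 31.6, which was 21.8 without TG5, the mouse with the highest level. *Tnfrsf8* rose with a log2 fold change of 4.96 (SE 0.55, adjusted p = 0.00956 in edgeR). The call was kept in 10 of 10 fits that left out a mouse, with log2 fold changes between 4.43 and 5.18, and also without any filter on low counts. No other gene of the GENCODE annotation overlaps *Tnfrsf8*. Its ligand CD30L, encoded by *Tnfsf8*, was low in all mice, between 0.0338 and 0.417 FPKM, and its log2 fold change was -0.71 (SE 0.53, adjusted p = 0.426 in edgeR).

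*Tnfrsf1b* (ENSMUSG00000028599) encodes TNFR2, the receptor for TNF and lymphotoxin alpha that has no death domain and binds TRAF2. It lies 20267 bp from *Tnfrsf8* on the same strand, at chr4:145213463-145246870. Its level was 9.48, 15.3, 16.6, 16.1 and 17.4 FPKM in TG1 to TG5, and 7.97, 4.59, 3.44, 8.07 and 4.25 FPKM in WT1 to WT5. The groups did not overlap, but TG1 came close to WT1 and WT4, the highest of the WT mice. The means were 15.0 ± 3.17 and 5.66 ± 2.19 FPKM (SD, n = 5), and *Tnfrsf1b* rose with a log2 fold change of 1.40 (SE 0.27, adjusted p = 0.0234 in edgeR). The log2 fold change stayed between 1.24 and 1.56 when each mouse was left out in turn. The call was kept in only 4 of these 10 fits and was lost without TG2, TG4, TG5, WT2, WT3 or WT5, with the highest adjusted p at 0.0684 over all alternatives. No other gene of the annotation overlaps *Tnfrsf1b*.

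The other receptor for TNF, TNFR1, is encoded by *Tnfrsf1a*, carries a death domain and is made by most cells. Its level was 58.3, 40.4, 35.1, 46.2 and 33.1 FPKM in TG1 to TG5 and 48.5, 32.5, 48.9, 49.3 and 50.7 FPKM in WT1 to WT5. The groups overlapped, with TG1 above and WT2 below all mice of the other group, and the log2 fold change was -0.11 (SE 0.18, adjusted p = 0.740 in edgeR). Within each mouse, the ratio of *Tnfrsf1b* to *Tnfrsf1a* FPKM was 0.163, 0.378, 0.474, 0.349 and 0.526 in TG1 to TG5, and 0.164, 0.141, 0.0705, 0.164 and 0.0838 in WT1 to WT5. TG2 to TG5 lay above all WT mice, whereas TG1 was level with the highest WT mice.

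**Figure D2:**
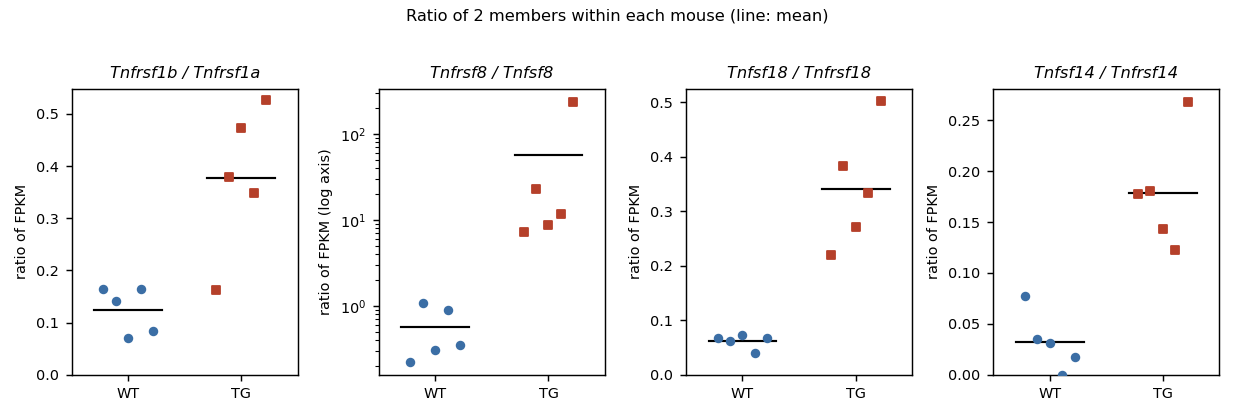
Ratio of the FPKM of 2 genes within each mouse, with WT as circles, HSD17B1TG as squares and the mean as a line, on a linear axis except for *Tnfrsf8* over *Tnfsf8*, which is on a log axis. The ratio of *Tnfrsf1b* to *Tnfrsf1a* overlaps through TG1 at 0.163, and the other 3 ratios, of *Tnfrsf8* to *Tnfsf8*, *Tnfsf18* to *Tnfrsf18* and *Tnfsf14* to *Tnfrsf14*, are higher in every HSD17B1TG mouse than in any WT mouse.

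The ratios of receptor to ligand, or ligand to receptor, are descriptions of the same reads and add no test. The ratio of *Tnfrsf8* to its ligand *Tnfsf8* was 7.28 to 238 in HSD17B1TG and 0.226 to 1.10 in WT. The value of 238 belongs to TG5, in which *Tnfsf8* was lowest at 0.0338 FPKM.

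*Tnfrsf9* (ENSMUSG00000028965) encodes CD137, a TRAF-binding costimulatory receptor of activated T cells and natural killer (NK) cells. It lies on the plus strand at chr4:150914562-150946102 and overlaps *Camta1* on the other strand. Whether reads were counted by strand is not given in the sources used here, so reads of the pair could have been split either way. Its level was 0.158, 0.190, 0.156, 0.0911 and 0.567 FPKM in TG1 to TG5, and 2.75, 0.619, 3.90, 0.196 and 2.57 FPKM in WT1 to WT5. WT1, WT3 and WT5 were far above all HSD17B1TG mice, WT2 was just above TG5, and WT4 was as low as TG2. *Tnfrsf9* fell by 3.11 on the log2 scale (SE 0.79, adjusted p = 0.0457 in edgeR), with means of 0.232 ± 0.190 and 2.01 ± 1.55 FPKM (SD, n = 5). With a mouse left out in turn, the log2 fold change was -3.73 (without TG5) to -2.75 (without WT3). The call was kept without WT4 and lost when any of the other 9 mice was left out, and neither limma voom nor limma on log2(FPKM + 1) made it. Its ligand *Tnfsf9* was between 1.38 and 5.07 FPKM in all mice, with a log2 fold change of -0.29 (SE 0.41, adjusted p = 0.701 in edgeR).

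**Figure D3:**
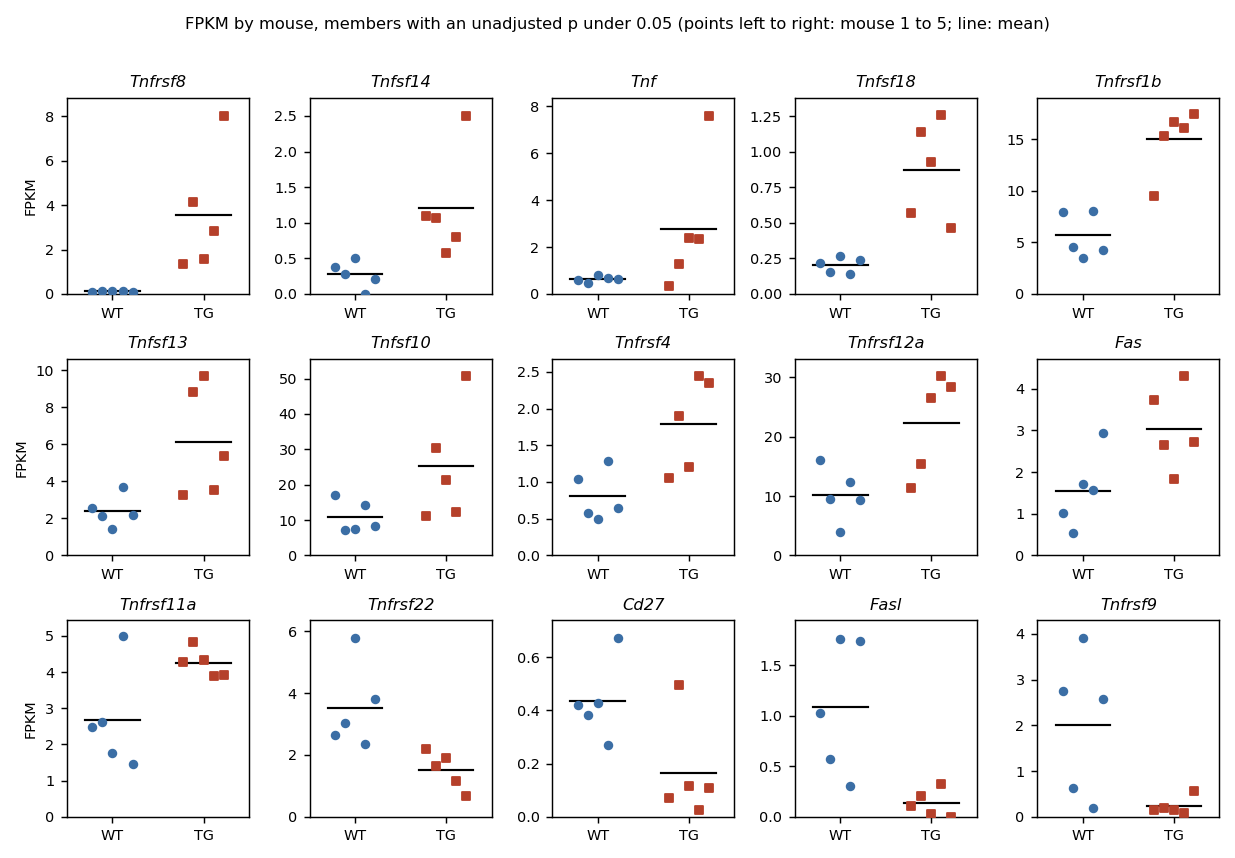
FPKM in each mouse for the 15 genes with an unadjusted p under 0.05 in edgeR, with WT mice as circles, HSD17B1TG mice as squares, mice 1 to 5 from left to right in each group, and the mean as a line. Each panel has its own linear axis from 0, on which *Tnfrsf8*, *Tnfsf14*, *Tnfsf18* and *Tnfrsf1b* are separate between the groups with HSD17B1TG above, and *Tnfrsf22* is separate with HSD17B1TG below.

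The 250 bases before the transcription start are shown for the 3 genes that passed the thresholds and for *Tnf*, since *Tnfrsf8* and *Tnfrsf1b* are neighbours that both rose and since NF-kB, the transcription factor downstream of the TRAF-binding receptors, is also known to drive genes of these families. The sequences are from RefSeq (GRCm38.p6), 5′ to 3′ on the strand of the gene, with matches to the NF-kB consensus of 10 bases, on either strand, in capitals. They are at chr4:145315165-145315414 (minus strand) for *Tnfrsf8*, chr4:145246871-145247120 (minus strand) for *Tnfrsf1b*, chr4:150927749-150927998 (plus strand, the second of 2 start sites) for *Tnfrsf9* and chr17:35202008-35202257 (minus strand) for *Tnf*.
Tnfrsf8: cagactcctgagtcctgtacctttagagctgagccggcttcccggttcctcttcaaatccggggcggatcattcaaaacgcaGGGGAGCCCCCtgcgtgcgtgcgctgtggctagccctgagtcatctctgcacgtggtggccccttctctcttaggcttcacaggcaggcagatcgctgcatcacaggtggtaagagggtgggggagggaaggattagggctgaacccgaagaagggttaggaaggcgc
Tnfrsf1b: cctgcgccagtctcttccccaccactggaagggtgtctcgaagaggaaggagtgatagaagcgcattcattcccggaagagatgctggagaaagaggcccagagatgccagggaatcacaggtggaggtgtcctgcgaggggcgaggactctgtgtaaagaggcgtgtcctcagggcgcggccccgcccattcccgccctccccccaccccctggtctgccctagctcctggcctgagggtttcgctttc
Tnfrsf9: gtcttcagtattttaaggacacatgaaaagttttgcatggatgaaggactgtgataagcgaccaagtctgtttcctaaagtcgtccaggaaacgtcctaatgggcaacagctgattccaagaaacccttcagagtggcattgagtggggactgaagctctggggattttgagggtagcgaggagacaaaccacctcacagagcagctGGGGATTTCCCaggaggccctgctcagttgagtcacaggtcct
Tnf: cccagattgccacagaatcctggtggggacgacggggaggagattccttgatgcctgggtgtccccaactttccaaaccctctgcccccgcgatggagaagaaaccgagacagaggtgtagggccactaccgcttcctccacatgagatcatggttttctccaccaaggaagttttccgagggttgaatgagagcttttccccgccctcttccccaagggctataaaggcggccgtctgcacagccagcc

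The *Tnfrsf8* window held 2 overlapping matches, which begin at positions -168 and -167 from the start, and the *Tnfrsf9* window held 2 overlapping matches, at -43 and -42. The window of the first start site of *Tnfrsf9* (chr4:150919905-150920154), which is not shown, held 0. The windows of *Tnfrsf1b* and *Tnf* held none, which says only that these letters are not in the 250 bases. A promoter sequence was matched to 31 of the 41 genes, and 4 of these 31 held the consensus (*Tnfrsf8*, *Tnfrsf9*, *Tnfrsf25* and *Ltb*), or 12.9%, beside 8.23% of all 27025 genes with a promoter sequence. The TATA box (TATAAA, either strand) was in 6 of the 31, or 19.4%, beside 14.3% of all genes. It stood at position -29 from the start of *Tnf* and at -34 from that of *Tnfsf18*. The estrogen response element (GGTCA and TGACC with any 3 bases between them) was in 0 of the 31, beside 0.0666% of all genes. A match is a description of letters and not a binding site, and the matches are found both in a gene that rose and in a gene that fell.

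Among the ligands, *Tnfsf18* was the most evenly separated. It encodes GITRL, the ligand of the receptor GITR, encoded by *Tnfrsf18*, which costimulates T cells. Its level was 0.571, 1.14, 0.926, 1.26 and 0.466 FPKM in TG1 to TG5, and 0.217, 0.153, 0.270, 0.141 and 0.236 FPKM in WT1 to WT5. Every HSD17B1TG mouse was above every WT mouse, and no mouse stood far from its group. The log2 fold change was 2.08 (SE 0.38, adjusted p = 0.0224 in edgeR), but the means of 0.873 ± 0.347 and 0.203 ± 0.0552 FPKM (SD, n = 5) are both under 1, so that it did not count as risen. The adjusted p was over 0.05 when TG2, TG4, WT1, WT2, WT3 or WT5 was left out, at 0.0506 to 0.0624. Its receptor *Tnfrsf18* had a log2 fold change of -0.26 (SE 0.34, adjusted p = 0.665 in edgeR). The ratio of *Tnfsf18* to *Tnfrsf18* was 0.219 to 0.503 in HSD17B1TG and 0.0395 to 0.0722 in WT.

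*Tnf* encodes TNF itself, the founding cytokine of the family. Its level was 0.327, 1.30, 2.37, 2.35 and 7.61 FPKM in TG1 to TG5 and 0.596, 0.482, 0.794, 0.679 and 0.655 FPKM in WT1 to WT5. The WT mice were close together, whereas the HSD17B1TG mice differed 23.2 times among themselves, with TG1 below every WT mouse and the other 4 above. With a log2 fold change of 2.11 (SE 0.66, adjusted p = 0.0750 in edgeR), *Tnf* did not pass. The ratio of the means was 4.35, and 2.47 without TG5. Without TG1, *Tnf* passed the thresholds.

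*Tnf* lies between the lymphotoxin genes on chr17, and both had log2 fold changes closer to 0. *Lta*, which encodes lymphotoxin alpha and lies 1158 bp away on the same strand, was 0.0929 to 0.815 FPKM in HSD17B1TG and 0.0897 to 0.706 FPKM in WT. Its log2 fold change was 0.07 (SE 0.65, adjusted p = 0.958 in edgeR), and its sign turned when TG1, WT2 or WT3 was left out. *Ltb*, which encodes lymphotoxin beta, lies 3061 bp away on the other strand and had a log2 fold change of -0.54 (SE 0.46, adjusted p = 0.491 in edgeR).

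*Tnfsf14* encodes LIGHT, a ligand of HVEM (*Tnfrsf14*) and of the lymphotoxin beta receptor (*Ltbr*). Its level was 1.10, 1.06, 0.576, 0.806 and 2.50 FPKM in TG1 to TG5 and 0.374, 0.285, 0.504, 0 and 0.211 FPKM in WT1 to WT5. All HSD17B1TG mice were above all WT mice, with TG3 close to WT3 and TG5 far above the rest. Its log2 fold change of 2.13 (SE 0.71, adjusted p = 0.0919 in edgeR) was short of the threshold. Its receptors had log2 fold changes of -0.61 (SE 0.35, adjusted p = 0.300) for *Tnfrsf14* and 0.18 (SE 0.12, adjusted p = 0.361) for *Ltbr*.

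*Tnfsf13* encodes APRIL, a survival factor of plasma cells. Its level was 3.28, 8.81, 9.68, 3.52 and 5.34 FPKM in TG1 to TG5 and 2.56, 2.15, 1.44, 3.67 and 2.18 FPKM in WT1 to WT5. The groups overlapped through WT4, which was above TG1 and TG4. *Tnfsf13* had a log2 fold change of 1.35 (SE 0.37, adjusted p = 0.0559 in edgeR). The gene lies 466 bp from *Tnfsf12*, the gene of TWEAK, and a read-through gene, *Tnfsfm13*, and an antisense gene, *Tnfsf13os*, overlap both, so reads may have been divided between them. The log2 fold change of *Tnfsf12* was -0.48 (SE 0.36, adjusted p = 0.428 in edgeR). The related ligand BAFF, encoded by *Tnfsf13b*, was 0.393 to 1.43 FPKM in HSD17B1TG and 0.651 to 2.87 FPKM in WT (log2 fold change -1.07, SE 0.49, adjusted p = 0.193).

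The TRAIL system was uneven. *Tnfsf10* encodes TRAIL, a death ligand. Its level was 11.1, 30.3, 21.4, 12.4 and 50.7 FPKM in TG1 to TG5 and 17.0, 7.05, 7.56, 14.3 and 8.25 FPKM in WT1 to WT5. TG2, TG3 and TG5 were above every WT mouse, while TG1 and TG4 were below WT1 and WT4, and the log2 fold change was 1.22 (SE 0.43, adjusted p = 0.107 in edgeR). Its death receptor *Tnfrsf10b* was 3.51 to 5.42 FPKM in HSD17B1TG and 2.63 to 3.97 FPKM in WT (log2 fold change 0.37, SE 0.17, adjusted p = 0.192). Its decoy receptor *Tnfrsf22* was 2.19, 1.65, 1.89, 1.15 and 0.670 FPKM in TG1 to TG5 and 2.66, 3.03, 5.79, 2.35 and 3.82 FPKM in WT1 to WT5. Every HSD17B1TG mouse was below every WT mouse for *Tnfrsf22*, but the log2 fold change of -1.23 (SE 0.36, adjusted p = 0.0618 in edgeR) did not pass. The second decoy, *Tnfrsf23*, and the related receptor *Tnfrsf26* lie beside it on chr7, at 16148 and 6084 bp, with log2 fold changes of -0.45 (SE 0.30, adjusted p = 0.369) and -0.75 (SE 0.37, adjusted p = 0.226). An antisense gene, *E230032D23Rik*, overlaps all 3, and the 3 are close paralogs, so their separate values are uncertain.

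*Fasl* encodes the *Fas* ligand, by which cytotoxic lymphocytes kill cells that carry *Fas*. Its level was 0.111, 0.208, 0.0274, 0.320 and 0 FPKM in TG1 to TG5 and 1.03, 0.571, 1.76, 0.300 and 1.74 FPKM in WT1 to WT5. WT4 was below TG4, and the other 4 WT mice were above every HSD17B1TG mouse. For *Fasl* the log2 fold change was -3.00 (SE 0.79, adjusted p = 0.0508 in edgeR), just short of the threshold. Its receptor *Fas* was 3.72, 2.65, 1.83, 4.30 and 2.71 FPKM in TG1 to TG5 and 1.02, 0.526, 1.72, 1.56 and 2.93 FPKM in WT1 to WT5, with a log2 fold change of 0.97 (SE 0.43, adjusted p = 0.184). The *Fas* groups overlapped through WT5 only. The ratio of *Fasl* to *Fas* was 0 to 0.0784 in HSD17B1TG and 0.192 to 1.08 in WT.

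The other receptors with an unadjusted p under 0.05 did not pass the thresholds in edgeR either, while DESeq2 called *Tnfrsf12a* (adjusted p = 0.0295) and *Tnfrsf4* (adjusted p = 0.0286) up and *Tnfrsf22* (adjusted p = 0.00895) down. *Tnfrsf12a* encodes Fn14, the receptor of TWEAK, which is induced in injured tissue. Its level was 11.3, 15.4, 26.5, 30.2 and 28.4 FPKM in TG1 to TG5 and 16.0, 9.56, 3.88, 12.3 and 9.25 FPKM in WT1 to WT5 (log2 fold change 1.13, SE 0.37, adjusted p = 0.0863 in edgeR). TG3 to TG5 were above every WT mouse and TG1 and TG2 were not. *Tnfrsf4*, which encodes the T cell costimulator OX40, was 1.06, 1.90, 1.21, 2.45 and 2.35 FPKM in TG1 to TG5 and 1.04, 0.578, 0.5, 1.28 and 0.644 FPKM in WT1 to WT5 (log2 fold change 1.14, SE 0.38, adjusted p = 0.0896). Again WT1 and WT4 were the highest WT mice and TG1 the lowest HSD17B1TG mouse.

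*Tnfrsf11a* encodes RANK, the receptor of RANKL and a regulator of osteoclasts and of the mammary epithelium. It was 4.28, 4.82, 4.32, 3.89 and 3.93 FPKM in TG1 to TG5 and 2.49, 2.62, 1.77, 4.99 and 1.45 FPKM in WT1 to WT5 (log2 fold change 0.67, SE 0.29, adjusted p = 0.178 in edgeR). The HSD17B1TG mice were close together, and WT4 alone of the WT mice was as high as they were. *Cd27*, which encodes a costimulator of T and NK cells, was 0.0691, 0.494, 0.114, 0.0266 and 0.110 FPKM in TG1 to TG5 and 0.419, 0.384, 0.426, 0.270 and 0.671 FPKM in WT1 to WT5 (log2 fold change -1.40, SE 0.63, adjusted p = 0.191). All HSD17B1TG mice but TG2 were below all WT mice, and without TG2 the log2 fold change was -2.40 (adjusted p = 0.0594 in edgeR). *Cd27* overlaps *Vamp1* on the other strand.

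None of the 6 most abundant genes of the families passed the thresholds in edgeR, while DESeq2 called *Tnfsf10* (adjusted p = 0.0418) and *Tnfrsf12a* (adjusted p = 0.0295) up. Over all 10 mice the highest mean levels were 44.3 FPKM for *Tnfrsf1a*, 37.4 for *Ltbr*, 18 for *Tnfsf10*, 16.8 for *Tnfrsf21*, 16.3 for *Tnfrsf12a* and 10.8 for *Tnfsf12*. *Tnfrsf1a* and *Ltbr* were at 31.6 FPKM or above in every mouse, and their ranges overlapped. The other 4 had wide and overlapping ranges, in which single mice of *Tnfsf10* and *Tnfrsf21* also passed 50 FPKM, so their order cannot be read. *Ltbr* was 39.8 ± 5.02 FPKM (SD, n = 5) in HSD17B1TG and 35.0 ± 2.80 FPKM in WT. *Tnfrsf21*, which encodes death receptor 6, was 6.36 to 21.4 FPKM in HSD17B1TG and 9.65 to 50.9 FPKM in WT, with a log2 fold change of -0.63 (SE 0.48, adjusted p = 0.442 in edgeR) that turned to 0.04 without WT3, the mouse at 50.9 FPKM. By mean level, 7 of the 41 genes were at 10 FPKM or more, 18 between 1 and 10, and 16 under 1. The lowest of these 7 was *Tnfrsf1b*, which rose, at 10.3 FPKM, close to *Tnfsf12*.

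Of the 41 genes, 7 had too few reads to be tested, with 0 to 14 reads in any mouse. They were the ligands *Cd40lg*, *Cd70*, *Tnfsf4*, *Tnfsf11* and *Tnfsf15*, which encode CD40L, CD70, OX40L, RANKL and TL1A, and the receptors *Tnfrsf13c* and *Tnfrsf17* of B cells, which encode BAFFR and BCMA. *Cd40lg* had 2 reads in TG1, 4 in TG4 and 0 in the other mice. At most a large difference could have been seen in these genes at this depth. Their mean FPKM was under 1 in both groups, so none could have passed the thresholds. Since the filter can let a gene pass through the group in which it is high, as *Tnfrsf8* may have done with 7 to 9 reads in each WT mouse, the counts of genes tested are no evidence of a direction.

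Some mice were often at an end of their group across genes. Of the 11 genes that were higher by an unadjusted p under 0.05, TG1 was the lowest HSD17B1TG mouse in 7, TG5 the highest in 5 and TG4 the highest in 4, and WT4 was the highest WT mouse in 5. The order was not fixed, since WT3 was the lowest WT mouse in 4 of the 11 and the highest in 3. Of the 4 that were lower, WT4 was the lowest WT mouse in 4 and WT3 the highest in 3. Without WT4, 6 genes rose (*Tnfrsf8*, *Tnfrsf1b*, *Tnfrsf4*, *Tnfrsf11a*, *Tnfsf13* and *Tnfsf14*) and 3 fell (*Tnfrsf9*, *Tnfrsf22* and *Fasl*), where 5.12% of all genes rose and 3.75% fell in the same fit. Without TG1, 5 rose (*Tnfrsf8*, *Tnfrsf1b*, *Tnfrsf12a*, *Tnf* and *Tnfsf13*) and 1 fell (*Tnfrsf22*), where 4.36% of all genes rose and 3.33% fell, and the median over the members tested was -0.08. The higher counts of members in these 2 fits thus went with higher counts over all genes.

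Markers of several cell types differed between the same groups. In a bulk sample fewer cells of a type and less RNA per cell cannot be told apart. The summed FPKM of 5 NK cell markers was 1.07, 4.21, 1.74, 1.31 and 4.18 in TG1 to TG5 and 39.9, 15.0, 73.7, 6.02 and 34.2 in WT1 to WT5 (log2 difference -3.54, p = 0.00794 in a two-sided exact permutation test, adjusted p = 0.0344 over 13 marker lists). WT4, the lowest WT mouse for these markers, was also the lowest WT mouse for *Tnfrsf9*, *Fasl* and *Cd27*, which NK cells are known to express. WT4 was lowest of the WT mice for the sums of all leucocytes, dendritic cells, T cells, B and plasma cells, endothelium and uterus too. The same held for *Tnfrsf22*. Of the 5 NK cell markers 4 fell, and *Klrb1c*, *Gzmb* and *Eomes* were at 0 in some HSD17B1TG mice. The part of NK cells in the lower *Tnfrsf9*, *Fasl* and *Cd27* was not tested.

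The summed FPKM of 5 neutrophil markers was 7.23 to 12.4 in HSD17B1TG and 0.601 to 4.26 in WT (log2 difference 2.30, exact permutation p = 0.00794, adjusted p = 0.0344). None of the 3 neutrophil markers tested passed the thresholds, *Retnlg* was at 0 in all mice but TG1, and *S100a8*, *S100a9* and *Ly6g* were at 0 in some WT mice. The sum of 6 macrophage markers was 84.9 to 308 in HSD17B1TG and 47.0 to 96.5 in WT (log2 difference 1.14, exact permutation p = 0.0238, adjusted p = 0.0774), with 1 of 6 risen, *Cd68*, and none at 0. The *Cd68* call was lost without TG2, TG4, TG5, WT1, WT2, WT3 or WT5 (adjusted p between 0.0578 and 0.0747 in edgeR). Most of this sum was *Cd14* (95.2 FPKM on average in HSD17B1TG and 37 in WT) and *Cd68* (54.1 and 18.1), while the log2 fold changes of *Adgre1* (-0.01), *Fcgr1* (0.14) and *Csf1r* (0.46) were smaller. As the mean of log2(FPKM + 1) over the list, which weights the 6 genes more evenly, the difference was 0.59 (exact permutation p = 0.00794). TG1 was the lowest HSD17B1TG mouse for the macrophage and epithelial sums and TG5 the highest. Their part in the higher *Tnfrsf8*, *Tnfrsf1b*, *Tnfsf18* and *Tnf* was not tested.

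The 6 epithelial markers summed to 590 to 2740 FPKM in HSD17B1TG and 440 to 1450 FPKM in WT (log2 difference 1.09, exact permutation p = 0.0714, adjusted p = 0.138), with none passing the thresholds and none at 0. Of these 6 markers, 5 (83.3%, beside 14.7% of all genes) were higher by an unadjusted p under 0.05, and the median log2 fold change was 1.22. The T cell sum was 0.903 to 2.46 FPKM in HSD17B1TG and 0.714 to 3.05 FPKM in WT (log2 difference -0.17, exact permutation p = 0.706, adjusted p = 0.765), so the sums overlapped, with *Cd8a* and *Cd5* at 0 in some mice. Single T cell markers went in opposite directions, with log2 fold changes of 1.33 for *Cd4* (SE 0.48, adjusted p = 0.109 in edgeR) and -1.16 for *Cd3g* (SE 0.54, adjusted p = 0.199). The sum of the uterine markers was 95.7 to 179 FPKM in HSD17B1TG and 180 to 439 FPKM in WT (log2 difference -1.44, exact permutation p = 0.00794, adjusted p = 0.0344), with *Hoxa10*, *Hoxa11* and *Hand2* fallen. TG1 had the highest uterine and smooth muscle sums of the HSD17B1TG mice, at 179 and 6860 FPKM. The sums of B and plasma cells, all leucocytes, dendritic cells, eosinophils, stroma, smooth muscle and endothelium had adjusted p of 0.138 or more. The leucocyte sum held opposite moves, since *Laptm5* rose (log2 fold change 1.28, adjusted p = 0.0312 in edgeR) and *Ptprc*, *Coro1a* and *Cd52* were lower by an unadjusted p under 0.05 (log2 fold changes -1.08, -0.90 and -1.37, adjusted p = 0.0558, 0.120 and 0.0639). Of the 5 stromal markers *Pdgfra* fell (log2 fold change -1.99, adjusted p = 0.0219 in edgeR), with every HSD17B1TG mouse below every WT mouse. The *Laptm5* call was lost without TG2, TG4, TG5, WT2, WT3 or WT5 (adjusted p between 0.0658 and 0.0770), and the *Pdgfra* call without TG2, TG5 or WT5 (adjusted p between 0.0554 and 0.0582).

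**Figure D4:**
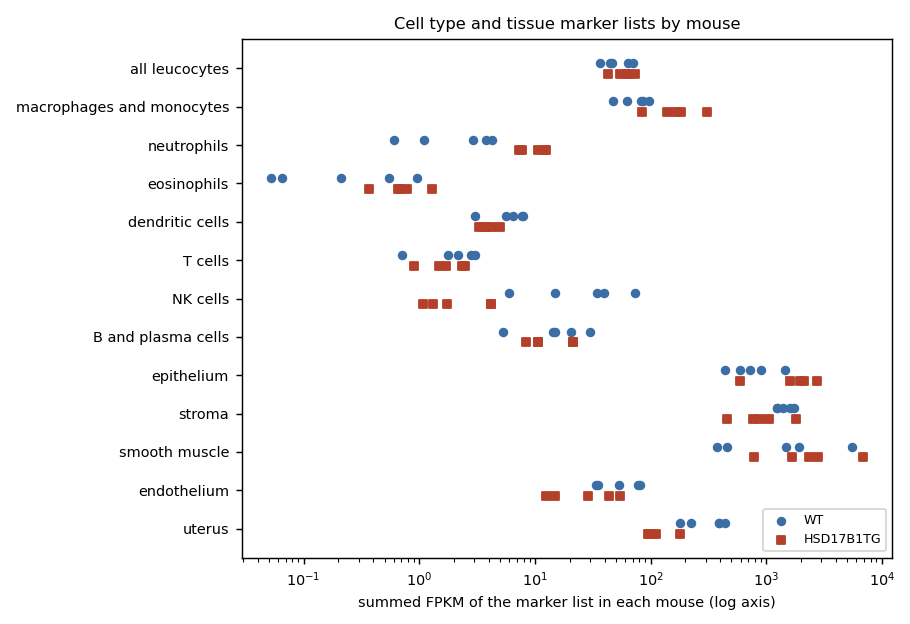
Summed FPKM of 13 marker lists in each mouse on a log axis, with WT as circles and HSD17B1TG as squares. The NK cell sums of HSD17B1TG mice (1.07 to 4.21) and their uterine marker sums (95.7 to 179) lie below those of every WT mouse, and their neutrophil sums (7.23 to 12.4) lie above.

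Genes that act with the families were taken from 4 lists. Of 25 adaptors and NF-kB signalling genes none passed the thresholds in edgeR, 7 (28.0%) were higher and 0 lower by an unadjusted p under 0.05, beside 14.7% and 11.4% of all genes, and the median log2 fold change was 0.19, with 22 higher and 3 lower. The smallest p belonged to *Traf5* (0.81, SE 0.22, adjusted p = 0.0517), *Map3k14*, which encodes the kinase NIK of the non-canonical pathway (0.89, SE 0.27, adjusted p = 0.0742), and *Traf1* (1.07, SE 0.33, adjusted p = 0.0749). DESeq2 called 1 of the 25 up, where it called 5.42% of all genes up. Of the 6 genes for shedding and cleavage none passed in edgeR or DESeq2, 1 was higher by an unadjusted p under 0.05 and the median was 0.14. The smallest p belonged to *Adam10* (0.41, SE 0.16, adjusted p = 0.148), *Rhbdf2* (0.52, SE 0.26, adjusted p = 0.240) and *Timp3* (-0.74, SE 0.42, adjusted p = 0.289).

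Of 20 genes known to respond to TNF, 14 were tested and 2 of these rose, where 2.16% of all genes rose. By an unadjusted p under 0.05, 6 (42.9%, beside 14.7% of all genes) were higher and 0 lower, and the median was 0.58. *Tnip3*, which encodes an inhibitor of NF-kB signalling that binds A20, was 0.688, 1.31, 1.29, 2.24 and 4.57 FPKM in TG1 to TG5 and 0.0170 to 0.0754 FPKM in WT. Its log2 fold change was 5.72 (SE 0.66, adjusted p = 0.00956 in edgeR). *Tnfaip2*, a gene named for its induction by TNF, was 6.45 to 17.5 FPKM in HSD17B1TG and 2.23 to 5.12 FPKM in WT (log2 fold change 1.44, SE 0.29, adjusted p = 0.0270). TG5 was the highest mouse for both. With a mouse left out in turn, *Tnip3* passed in 10 of 10 fits, while *Tnfaip2* did not pass without TG4, TG5, WT1, WT2, WT3 or WT5 (adjusted p between 0.0503 and 0.0718 in edgeR). The 6 untested genes of this list were under 1 FPKM in all mice. Of these, *Csf2*, which encodes the cytokine GM-CSF, was 0.0671 to 0.803 FPKM in HSD17B1TG and 0 to 0.0658 FPKM in WT, and the chemokine gene *Cxcl2* was 0.0771 to 0.684 FPKM in HSD17B1TG and 0 to 0.178 FPKM in WT. The other untested genes, *Il6*, *Ccl20*, *Cxcl10* and *Sele*, had their highest level in a WT mouse. *Csf2* and *Cxcl2* were named after their values were seen.

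The relatives outside the rule, of which 5 of 6 were tested, were mostly lower, with none past the thresholds in edgeR, 0 higher and 3 lower by an unadjusted p under 0.05 (60.0%, beside 11.4% of all genes) and a median of -1.04. *Edaradd*, an adaptor of the ectodysplasin receptor, had a log2 fold change of -2.79 (SE 0.71, adjusted p = 0.0451) but means under 1 FPKM in both groups. *Eda*, the ligand ectodysplasin, was 1.65 ± 0.997 FPKM (SD, n = 5) in HSD17B1TG and 3.39 ± 1.10 FPKM in WT (-1.04, SE 0.37, adjusted p = 0.107 in edgeR). *Ngfr*, the nerve growth factor receptor, was 36.2 ± 23.2 and 94 ± 59.4 FPKM (-1.38, SE 0.62, adjusted p = 0.186). *Edar* could not be tested.

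Many of the genes lie in clusters. Of the 41 genes, 22 have another member within 100000 bp, in 16 pairs, and 9 lie on chr4 and 8 on chr17. Neighbours moved alike in *Tnfrsf8* and *Tnfrsf1b*, which both rose, and had the same sign in *Tnfrsf22*, *Tnfrsf23* and *Tnfrsf26*. Signs were opposite in *Tnfrsf4* and *Tnfrsf18*, 9552 bp apart on the same strand, with log2 fold changes of 1.14 and -0.26. They were also opposite in *Tnf* and *Ltb* and in *Tnfsf13* and *Tnfsf12*. *Tnf* and *Lta* had the same sign but unlike sizes, at 2.11 and 0.07. The difference between neighbours was not tested.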

How the data were processed

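Uterine RNA was read in pairs of 150 bp by NovaSeq. The authors mapped the reads with HISAT2 2.0.5 to the mouse genome (Ensembl 94, GRCm38) and deposited raw counts per gene, a signal that is the count divided by a DESeq2 size factor, which was not used here, and FPKM. The counting program is not given in the sources used here, and the authors' own fold changes and p-values were not used.

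Counts were filtered with filterByExpr (minimum count 10), normalized with TMM and tested with edgeR 4.0.16 (R 4.3.3, quasi-likelihood test, Benjamini-Hochberg adjustment over 16993 genes). Marker sums were compared on the log2 scale by a two-sided exact permutation test over 252 assignments of the 10 mice, with 0.00794 as the smallest possible p. For single genes the same test on log2(FPKM + 1) gave an adjusted p over all genes of at least 0.119. Alternatives were DESeq2 1.42.0, limma 3.58.1 (voom, or log2 FPKM with pseudocount 1 or 0.1), other normalizations, filters and thresholds, and leaving out each mouse. The methods were tested on simulated counts.

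Statistics are given for genes past the thresholds, with an unadjusted p under 0.05, with groups that do not overlap, or that are partners of such genes past the thresholds. Levels are given for the 6 most abundant genes, and of each list the genes past the thresholds or the 3 with the smallest p are named. Neighbouring genes, receptors of named ligands and *Tnfsf13b* were added after their values were seen. The genes and lists were chosen with earlier results of these data known. Overlaps are from GENCODE M21. The limit of 3 reads covers counting error only, while SE and p-values rest on the spread between mice.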

Additional observations from a re-analysis of the deposited data

Results flagged for a closer look

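Of 94 groups of 5 mice tested for a mouse far from the others (68 of them for members of the families), 9 held one, 8 of them for members. About 1 in 20 groups would hold one by chance if values were normally distributed. The test used FPKM without a log scale and the same mice recur across groups, so these counts cannot be set against chance. The gap to the nearest mouse is given as a share of the range of the group. In HSD17B1TG, TG5 was highest for *Tnf* at 7.61 FPKM (next 2.37, gap 0.720), for *Tnfsf14* at 2.50 FPKM (next 1.10, gap 0.726) and for *Tnfrsf9* at 0.567 FPKM (next 0.190, gap 0.792). TG1 was lowest for *Tnfrsf1b* at 9.48 FPKM (next 15.3, gap 0.736) and highest for the sum of uterine markers at 179 FPKM (next 112, gap 0.800). TG2 was highest for *Cd27* at 0.494 FPKM (next 0.114, gap 0.813). In WT, WT3 was highest for *Tnfrsf21* at 50.9 FPKM (next 15.4, gap 0.861). WT2 was lowest for *Tnfrsf1a* at 32.5 FPKM (next 48.5, gap 0.879) and highest for *Tnfrsf19*, which encodes the receptor TROY, at 22.6 FPKM (next 6.27, gap 0.808).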

How the results depend on the processing

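The direction of the 15 members with an unadjusted p under 0.05 was the same in 268 of 268 values from the alternatives that refit the data. The number that passed the thresholds was not stable. Of the members, 2 rose and 1 fell, beside 2.16% and 2.08% of all genes. DESeq2 gave 8 and 3 (5.42% and 3.87% of all genes), and an adjusted p under 0.1 gave 7 and 3 (4.65% and 3.58%). Upper quartile normalization gave 2 that fell (2.38% of all genes). Limma voom gave 0 that fell (1.11% of all genes), and limma on log2(FPKM + 1) gave 0 (1.34%). When each mouse was left out in turn, 1 to 6 rose and 0 to 3 fell, where 0.219% to 5.12% of all genes rose and 0.156% to 3.75% fell, and the median log2 fold change of the members was -0.08 to 0.21. Limma on log2(FPKM + 0.1) had 1 that fell (1.88% of all genes), *Fasl* in place of *Tnfrsf9*. Of the adaptors and NF-kB signalling genes, 0 rose, but 1 in DESeq2, 1 at an adjusted p under 0.1, and 0 to 1 with a mouse left out. Of the relatives outside the rule, 0 fell, but 1 in DESeq2, 1 by the adjusted p alone, and 0 to 1 with a mouse left out. Of the TNF response genes, 2 rose, but 4 in DESeq2, 4 at an adjusted p under 0.1, and 1 to 3 with a mouse left out. Of all genes, 2.16% rose in the main fit, 5.42% in DESeq2 and 4.65% at an adjusted p under 0.1. By the adjusted p alone, 2.81% of all genes were lower. The log2 fold change of *Lta* turned to -0.36 without TG1, -0.15 without WT2 and -0.19 without WT3 (range with a mouse left out -0.36 to 0.38), that of *Tnfsf9* to 0.05 without WT5 (range -0.64 to 0.05) and that of *Tnfrsf21* to 0.04 without WT3 (range -0.87 to 0.04). Of the macrophage markers, *Adgre1* turned to 0.04 without TG2, 0.14 without TG3 and 0.11 without WT3 (range -0.25 to 0.14), and *Fcgr1* to -0.06 without WT5 (range -0.06 to 0.40). The log2 difference of all leucocyte markers was 0.19, but -0.25 for the mean of log2(FPKM + 1), and that of B and plasma cell markers was -0.13, but 0.03 for that mean, 0.04 without TG4 and 0.12 without WT2 (range with a mouse left out -0.50 to 0.12). That of T cell markers was -0.17, but 0.05 without TG3 and 0.01 without WT5 (range -0.52 to 0.05). The cause was not tested. Leaving out a mouse also takes away a sample. No paired analysis was possible because the labels give no litter or batch that ties an HSD17B1TG mouse to a WT mouse.

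With 5 mice per group, the smallest exact permutation p of a single gene, 0.00794, was 0.119 after adjustment over all genes. The 7 untested members had at most 14 reads in any mouse.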
